A study of Mus musculus with 2 samples.

Results

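The genes of the CCAAT/enhancer-binding protein (C/EBP) family were examined for binding sites of the thyroid hormone receptor TRα1 in mouse brown adipose tissue. The family was taken as 7 genes, Cebpa, Cebpb, Cebpd, Cebpe, Cebpg, Cebpz and Ddit3, of 21938 protein-coding genes. A TR binding site (TRBS), that is a ChIP-seq peak, was attributed to a gene when its summit, the position of the highest pileup, lay within 100 kb of the transcription start site (TSS), and sites within 30 kb are described first. By this rule 16 of the 5107 TRBS in the deposited list belonged to the family within 100 kb, and 12 of them lay within 30 kb. The family was chosen by the number of peaks near Cebpb in this same list, so the numbers of TRBS below are a description and no test was made on them.

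The sites came from 1 ChIP library and 1 input library, the latter being chromatin that had not been precipitated. Both were made from brown adipose tissue of male C57BL/6J mice, 8 to 12 weeks old, which express TRα1 carrying a GS tag specifically in their brown adipocytes. Both also shared the same treatment. The mice were hypothyroid after 2 weeks of food with propylthiouracil, a drug that blocks thyroid hormone synthesis. They then received thyroid hormone, listed by the study as T3/T4, with a treatment time of 24 h. According to the labels, the ChIP used an antibody that precipitates the receptor. The study describes tagged receptors as a way around the lack of good antibodies. It credits a conditional (floxed) construct with reaching occupancy in 1 cell type of a mixed tissue. The labels do not say whether the antibody recognises the tag or the receptor itself, and the cell type behind the sites was not tested here. Without a second library of either kind there is no replicate error, and as hormone-free tissue was not used here, no effect of the hormone on binding is given. Gene expression was not measured in these samples. The number of ChIP fragments at each summit was worked out from the fold and the p-value deposited for it. Their intervals cover counting error alone, since copies of 1 molecule cannot be recognised.

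The C/EBP proteins bind DNA as dimers through a basic leucine zipper. C/EBPβ and C/EBPδ act early in the differentiation of adipocytes, and C/EBPα acts later together with PPARγ. C/EBPγ and CHOP, the product of Ddit3, dimerise with the other members and can restrain them, C/EBPε acts in granulocytes, and Cebpz encodes a CCAAT-binding factor outside the leucine zipper group. TRα1 binds DNA mostly as a heterodimer with RXR, and its preferred target is the DR4 element, a direct repeat of the AGGTCA hexamer with a spacer of 4 bp.

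The sequences at the summits are shown for the 4 TRBS of Cebpb that hold a DR4 or are among its 3 strongest by score, and for the site of Cebpz. They show how close to the summit the element lay and how far it departed from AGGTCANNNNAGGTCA. Each is the plus strand of GRCm38 (mm10), 75 bp to each side of the summit. Capitals mark the 12 hexamer bases of a DR4 with at most 2 mismatches, and the 10 bases covered by overlapping C/EBP matches in the first one. In the TRBS at +13295 bp, which had no such DR4, capitals mark the nearest approach, with 3 mismatches.
Cebpb −1001 bp, chr2:167687839-167687989: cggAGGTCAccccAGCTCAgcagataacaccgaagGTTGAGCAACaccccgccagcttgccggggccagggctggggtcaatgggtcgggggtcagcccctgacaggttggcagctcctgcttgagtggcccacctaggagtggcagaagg
Cebpb +7306 bp, chr2:167696146-167696296: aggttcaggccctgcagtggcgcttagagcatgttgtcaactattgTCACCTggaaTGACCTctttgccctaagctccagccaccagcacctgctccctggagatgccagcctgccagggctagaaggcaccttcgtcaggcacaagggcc
Cebpb +13295 bp, chr2:167702135-167702285: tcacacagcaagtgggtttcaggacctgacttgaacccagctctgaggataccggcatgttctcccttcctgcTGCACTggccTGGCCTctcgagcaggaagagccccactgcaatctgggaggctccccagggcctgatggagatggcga
Cebpb +25635 bp, chr2:167714475-167714625: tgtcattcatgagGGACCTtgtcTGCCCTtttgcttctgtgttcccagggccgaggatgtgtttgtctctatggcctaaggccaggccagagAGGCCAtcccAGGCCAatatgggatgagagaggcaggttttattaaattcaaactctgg
Cebpz +4849 bp, chr17:78932142-78932292: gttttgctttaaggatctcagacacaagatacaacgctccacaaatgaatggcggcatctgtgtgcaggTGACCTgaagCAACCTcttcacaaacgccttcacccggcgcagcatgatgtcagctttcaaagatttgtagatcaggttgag

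A TRBS lay within 30 kb of 5 of the 7 C/EBP genes, namely Cebpa, Cebpb, Cebpg, Cebpz and Ddit3, and none lay within 100 kb of Cebpd or Cebpe. Cebpb had 6 TRBS, Cebpg had 3, and Cebpa, Cebpz and Ddit3 had 1 each. Among all protein-coding genes, 16.7% had at least 1 TRBS at this distance and 38.3% had one within 100 kb, where the same 5 members had one. More than 1 TRBS, as for Cebpb and Cebpg, was seen for 4.55% of genes, and at least 3 for 1.75%. At least 6, the number of Cebpb, was reached by 0.119% of genes, or 26 in all. Since the rule rests on these same peaks, nothing is drawn from these shares.

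**Figure D1:**
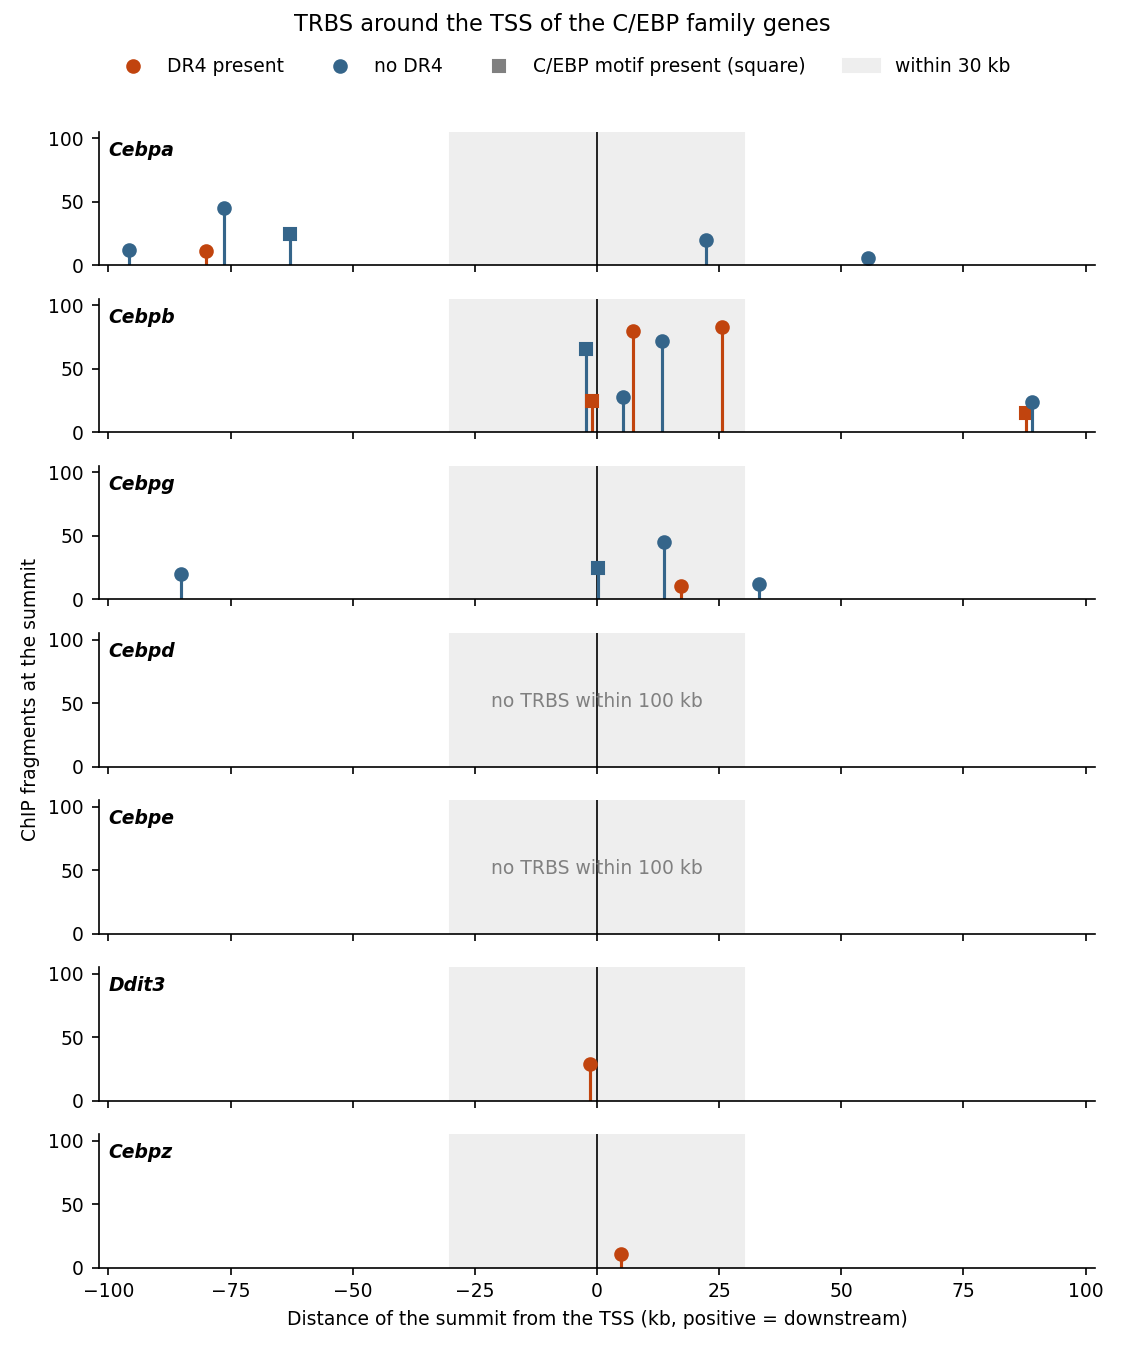
Position of each TRBS relative to the TSS of the 7 genes (x axis, kb, positive downstream on the strand of the gene) and number of ChIP fragments at its summit (y axis). Orange marks a TRBS with a DR4, blue one without, squares a C/EBP motif, and grey shading the 30 kb on each side; 6 of the 12 TRBS in the shading stand around Cebpb, while Cebpd and Cebpe have none.

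Most of the fragments at family TRBS within 30 kb lay around Cebpb, whose product is an early regulator of adipogenesis. Its gene lies at chr2:167688915-167690418 on the plus strand. Summits lay at −2152, −1001, +5406, +7306, +13295 and +25635 bp from the TSS, with 66, 25, 28, 80, 72 and 83 ChIP fragments respectively. The TRBS at −2152, +7306, +13295 and +25635 bp, had at least 66 fragments, whereas the other two had 28 or fewer and their exact Poisson 95% intervals (16.2 to 36.9 and 18.6 to 40.5) ended below the lowest interval of the stronger group (51.0 to 84.0). The fragments of the 6 TRBS added up to 354, which was 71.5% of the 495 fragments at all 12 family TRBS within 30 kb. This share counts the TRBS at +5406, +7306, +13295 and +25635 bp, which lay nearer to the TSS of Tmem189 than to that of Cebpb.

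The TRBS at +25635 bp (chr2:167713492-167714891) was the strongest of the family, with a score of 1522, a fold enrichment over input of 58.7 and 83 fragments (66.1 to 103.0). Its score exceeded or equalled that of 98.6% of all TRBS. The score is 10 times the −log10 of the q-value given by MACS, and the fold is the ratio of ChIP pileup to local input background with 1 added to both, which lowers the fold most where the background is low. The TRBS at +13295 bp (chr2:167701957-167702528) followed with a score of 1165 and a fold of 45.4, and that at +7306 bp (chr2:167695724-167696805) with 1081 and 35.8. The Poisson intervals of these 3 sites overlapped, so their order cannot be told apart by counting.

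The TRBS closest to the promoter of Cebpb were of unequal strength. The one at −2152 bp (chr2:167686482-167687198) had a score of 651 and a fold of 19.5, with a background of 2.44 fragments that was the highest of the family together with the site at the Cebpg start. The one at −1001 bp (chr2:167687627-167688148) had a score of 247, a fold of 14.0 and a background of 0.857. The TRBS at +5406 bp (chr2:167693934-167694632) had a score of 250 and a fold of 13.1. By score, these weaker sites stood at percentiles 70.2 and 70.6 of all TRBS.

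The 6 summits spanned 27787 bp, with successive gaps of 1151, 6407, 1900, 5989 and 12340 bp. Another summit lay within 10 kb for 7 of the 12 family TRBS, 5 of them at Cebpb and 2 at Cebpg, against 29.7% of all TRBS, a measure that the choice of a gene with many sites favours. Beyond 30 kb of Cebpb, no summit was found until +87858 bp (15 fragments) and +88996 bp (24 fragments), and the next lay outside the window at −117433 bp.

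The TRBS of Cebpb cannot be attributed to this gene alone. The gene Tmem189 (chr2:167642608-167689822, minus strand) overlaps Cebpb, and its TSS lies within 30 kb of the same 6 summits. Cebpb was the nearest protein-coding gene for the 2 upstream TRBS, which fall in an intron of Tmem189, whereas the TSS of Tmem189 was nearer to the 4 downstream ones. These 4 fell within the long non-coding gene A530013C23Rik, 3 in an intron and the one at +7306 bp in an exon. When TRBS of at least 5-fold enrichment were counted, 12 genes had as many as Cebpb or more. Hr, Nudt18 and Tob2 had 7 each, and Atp5d, Cbarp, Cebpb, Cish, Nr1d1, Ppara, Stk11, Tmem189 and Xrcc6 had 6 each.

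**Figure D2:**
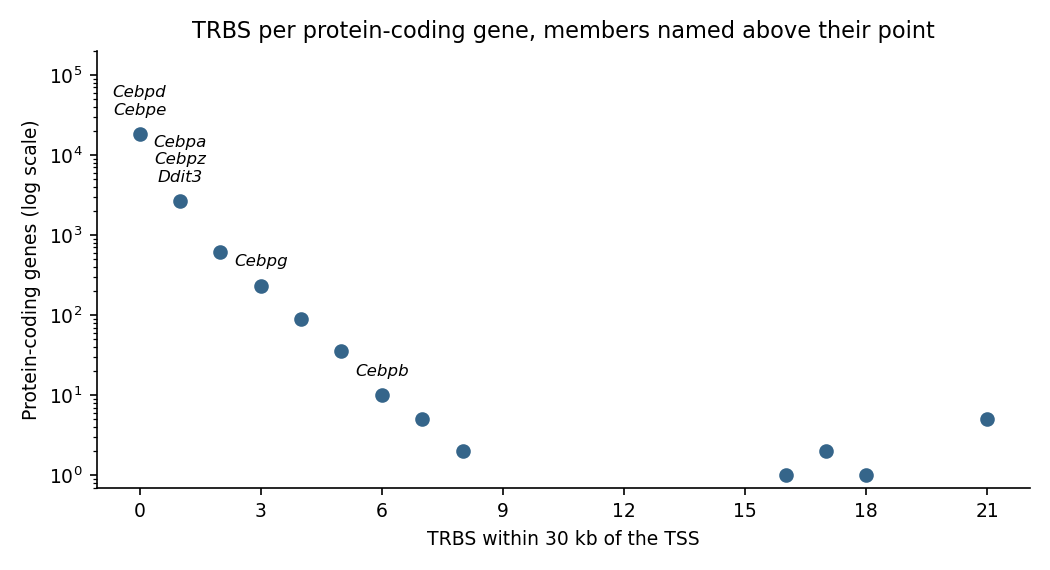
Number of TRBS within 30 kb of the TSS (x axis) against the number of protein-coding genes with that many (y axis, log scale), with the C/EBP genes written above the point they belong to. Cebpb is 1 of 10 genes with exactly 6 TRBS, and 16 genes have more.

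Cebpg and Cebpa, which encode an inhibitory dimer partner and the C/EBP of terminal adipocyte differentiation, are neighbours on chromosome 7. Cebpg occupies chr7:35046422-35056573 on the minus strand and Cebpa chr7:35119293-35121928 on the plus strand, so that 5 TRBS lie within 100 kb of both and were counted once in the total of 16. The 3 TRBS within 30 kb of Cebpg all lay downstream of its TSS, at +137, +13643 and +17268 bp, with 25, 45 and 11 fragments. The strongest, at +13643 bp, had a score of 535, a fold of 22.9 and a Poisson interval of 32.8 to 60.2 fragments. It exceeded the site at +17268 bp (chr7:35038921-35039446, score 85, fold 7.72), whose interval was 5.49 to 19.7. Both fell in an intron of Pepd.

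The TRBS at +137 bp of Cebpg (chr7:35055966-35056609) covered the start of the gene, and its summit lay in the 5′ UTR. It was the one family TRBS that overlapped the start of its own gene. Its score of 139 was near the median of all TRBS (percentile 49.0), its GC content of 75.2% was the highest of the family, and its local background of 2.44 fragments left a fold of 7.57 with 25 fragments (16.2 to 36.9). Whether GC content or background had a part in this site was not tested. The bases upstream of the start of Cebpg are printed on the strand of the gene, from RefSeq promoter sequence (GRCm38.p6), with the 36 bases that lie inside the TRBS in capitals at the 3′ end.
Cebpg upstream, chr7:35056574-35056816: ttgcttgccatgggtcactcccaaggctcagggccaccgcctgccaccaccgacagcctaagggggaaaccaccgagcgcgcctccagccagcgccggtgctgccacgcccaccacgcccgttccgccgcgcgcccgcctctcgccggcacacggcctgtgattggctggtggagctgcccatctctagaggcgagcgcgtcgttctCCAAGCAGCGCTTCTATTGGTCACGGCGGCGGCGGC

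RefSeq promoter sequences, from 250 bp before to 50 bp after the start, were matched for 4 of the 7 members (Cebpa, Cebpb, Cebpg and Ddit3). None of the 4 held a DR4, which was present in 3.01% of 27025 promoters of this length. A C/EBP motif was found in the promoter of Cebpa (chr7:35119043-35119342), against 6.68% of all promoters. No TRBS overlapped this window at Cebpa, Cebpb or Ddit3.

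Cebpa had a single TRBS within 30 kb, at +22343 bp in intergenic sequence (chr7:35141380-35141870). It had a score of 206, a fold of 13.1 and 20 fragments (12.2 to 30.9), close to the median of 17 fragments over all TRBS. Within 100 kb Cebpa had 6 TRBS, but 4 of these lay nearer to Cebpg. The sixth, at +55559 bp, had a score of 32 and about 6 fragments (2.2 to 13.1), a number that is less certain because 2 whole numbers met the deposited values, and its nearest protein-coding gene was Slc7a10, an amino acid transporter gene. It was the one family TRBS under the score of 60 that the study used as a threshold. Just outside 30 kb of Cebpg lay the site at +33096 bp with 12 fragments, and just inside 100 kb of Cebpa the same site at −95816 bp. Just outside 100 kb, the next summits lay at −179983 bp of Cebpa and +117263 bp of Cebpg.

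Ddit3, the stress-induced member, had a single TRBS at −1372 bp (chr10:127289213-127290378). It had a score of 263, a fold of 13.5 and 29 fragments (19.4 to 41.6). The summit lay in the promoter of the neighbouring gene Mbd6, at −384 bp from its TSS. The starts of 6 protein-coding gene entries were within 30 kb of the summit, a number that includes both of the 2 entries named Ddit3. Cebpz had a single TRBS at +4849 bp (chr17:78932057-78932363) in one of its coding exons, with a score of 80, a fold of 7.44 and 11 fragments (5.49 to 19.7). This was the weakest of the 12 TRBS by score, and it was no longer counted when a score of at least 100 was required. The next TRBS lay at 311639 bp from Ddit3 and at 535544 bp from Cebpz.

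Cebpd and Cebpe were the members without a TRBS. Cebpd, which acts together with Cebpb early in adipogenesis, had its nearest TRBS at −902158 bp, and 13.3% of protein-coding genes were as far from a TRBS or farther. Cebpe, the granulocyte member, had its nearest TRBS at +143074 bp, and 52.9% of genes were as far or farther, the median distance being 161648 bp. The absence of a peak says that no site passed the peak caller at this depth, where the fewest fragments of any listed TRBS were 5. It does not show that the receptor was absent.

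**Figure D3:**
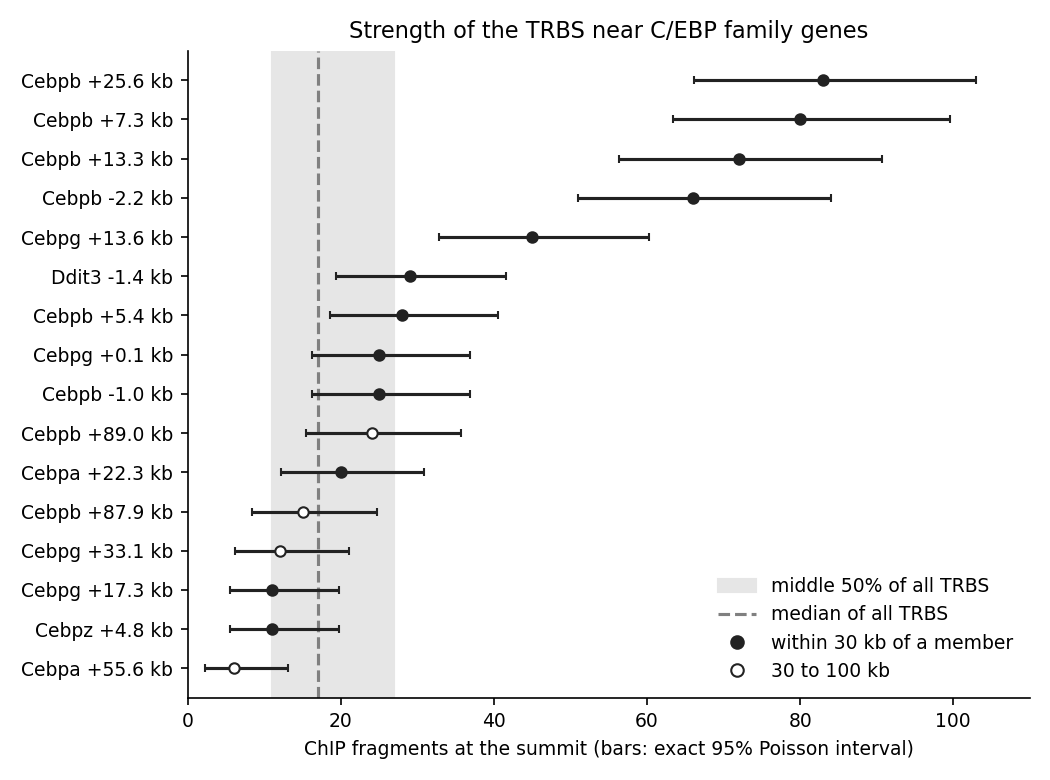
ChIP fragments at the summit (x axis) of the 16 TRBS within 100 kb of a C/EBP gene, named by the gene with the smallest distance, with exact 95% Poisson intervals that cover counting error alone. The grey band holds the middle 50% of all TRBS (11 to 27 fragments) and the dashed line their median of 17; 4 TRBS of Cebpb and 1 of Cebpg have intervals wholly above the band.

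Over the 12 TRBS within 30 kb, the number of fragments ranged from 11 to 83 with a median of 28.5, against a median of 17 over all TRBS. The median fold was 13.8 against 9.83, and the median background was 0.933 against 0.672 fragments. The family TRBS were also wider (median 608 against 424 bp) and richer in GC (median 56.5% against 51.1%), while repeats covered a like part of them (7.98% against 7.01%). These medians rest largely on Cebpb, whose 6 TRBS had a median of 69.0 fragments and are 6 of the 12. The sites of 1 gene are not independent, and no test was made.

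A DR4 with at most 2 mismatches over its 12 hexamer bases, searched on both strands, was found in 6 of the 12 TRBS (50.0%, Wilson 95% interval 25.4 to 74.6%). The share over all TRBS was 32.0%, which lies within that interval. Wilson intervals here and below take the TRBS as independent, which the sites around 1 gene are not. The family TRBS were wider than all TRBS, so more sequence was searched in each, which was not allowed for in the whole-peak motif shares here and below. In flanking windows of the same width, placed 2 kb beyond each edge, it was found in 3 of 23 for the family and in 5.44% for all TRBS. The TRBS with a DR4 were 3 of Cebpb and 1 each of Cebpg, Cebpz and Ddit3. The single TRBS of Cebpa had none.

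The closest matches to the DR4 consensus were both at Cebpb and had 1 mismatch. The TRBS at −1001 bp held AGGTCAccccAGCTCA at chr2:167687842-167687857, 64.5 bp from its summit. The TRBS at +7306 bp held AGGTCAttccAGGTGA at chr2:167696192-167696207 on the minus strand, 21.5 bp from its summit. At +25635 bp the strongest TRBS of the family held a pair of elements with 2 mismatches each, AGGCCAtcccAGGCCA at 24.5 bp downstream of the summit and AGGGCAgacaAGGTCC at −54.5 bp. In these examples the capitals mark the hexamers and lower case the spacer.

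Cebpg, Cebpz and Ddit3 each had 1 element with 2 mismatches. In Cebpz it was AGGTTGcttcAGGTCA, centred 1.5 bp from the summit, and at +17268 bp of Cebpg it was AGGTCAaagcAGTACA, 29.5 bp away. In Ddit3 it was ATGTCAatccAGGTGA, which lay 814.5 bp from the summit, at the far end of a TRBS 1166 bp wide. Within 100 bp of the summit, 41.7% of the 12 TRBS held a DR4, against 27.5% of all TRBS.

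At Cebpb, the TRBS with and without a DR4 overlapped in strength. The 3 TRBS with a DR4 had 25, 80 and 83 fragments, and the 3 without had 66, 28 and 72, so both groups held weak and strong sites. The TRBS at +13295 bp, with a fold of 45.4, had as its best element AGGCCAggccAGTGCA with 3 mismatches.

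Single AGGTCA or GGGTCA hexamers without mismatch were more widespread. They were found in 10 of the 12 TRBS (83.3%), against 72.5% of all TRBS and 69.6% of the flanks of the family sites, and the site at the Cebpg start and that of Cebpa had none. Pairs of exact hexamers with spacers of 0 to 10 bp were present in 3 of the 12 (25.0%), against 383 of the 5107 TRBS. None of them was a DR4. At Ddit3 the pair was the everted repeat TGACCCgcctctccAGGTCA (chr10:127289365-127289384) with a spacer of 8 bp, centred at −27.5 bp from the summit and thus nearer to it than the DR4. At −1001 bp of Cebpb it was the direct repeat GGGTCAatgggtcggGGGTCA with a spacer of 9 bp, 9.0 bp from the summit, and at +7306 bp the inverted repeat AGGTCAggcgTGACCC with a spacer of 4 bp, farther out at −182.5 bp from the summit. These arrangements occurred in 0.352%, 0.548% and 0.0587% of all TRBS.

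**Figure D4:**
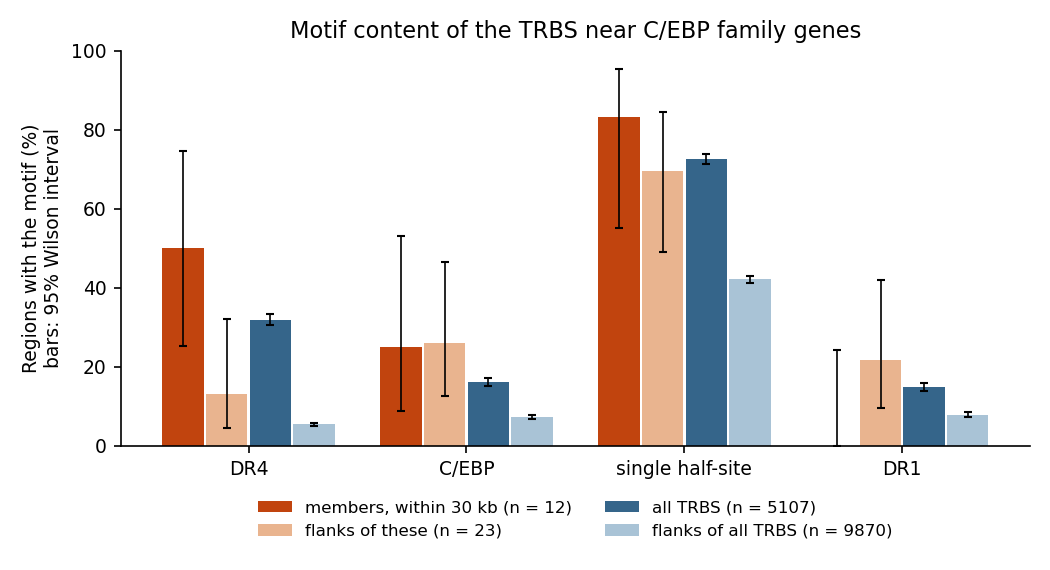
Percentage of regions (y axis) with a DR4, a C/EBP motif, a single hexamer (labelled half-site) or a DR1 element, a direct repeat with a spacer of 1 bp, in the 12 family TRBS, the 23 windows flanking them, all 5107 TRBS and the 9870 windows flanking those. Error bars are 95% Wilson intervals, which take the regions as independent although several TRBS surround the same gene. The interval of the 12 TRBS covers the share of all TRBS for each of the 4 motifs plotted.

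C/EBP motifs were searched because C/EBP proteins are known to regulate genes of their own family. The search used TTGCGCAAC, TTGCGCAAT, TTACGCAAC and TTACGCAAT with at most 1 mismatch on both strands. A match was found in 3 of the 12 TRBS (25.0%, 8.89 to 53.2%), against 16.1% of all TRBS. The windows flanking the family TRBS held one in 26.1% (6 of 23), so no excess over the surrounding sequence was seen at these loci, whereas over all TRBS the flanks held one in 7.33%. None of the 3 was an exact match.

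The C/EBP matches were at Cebpb and Cebpg. The TRBS at −2152 bp of Cebpb had TTGCTCAAT, 185 bp from the summit (185.0), and that at −1001 bp had TTGAGCAAC, 35.0 bp from the summit and read on both strands with a shift of 1 bp. The TRBS at the Cebpg start had TTACGAAAC 67.0 bp from its summit, and also TGATGCAA, the composite element bound by dimers of C/EBP and ATF proteins, which occurred in 2.04% of all TRBS. Beyond 30 kb, the site at +87858 bp of Cebpb had TTACTCAAC. A DR4 and a C/EBP motif were found together in 1 of the 12 TRBS (8.33%), the one at −1001 bp of Cebpb, against 4.82% of all TRBS, and 4 of the 12 (33.3%) had neither, against 56.7%.

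Motifs of other factors of brown adipocytes were found in 0 to 2 of the 12 family TRBS. A DR1 with at most 2 mismatches, the element of PPARγ with RXR, was found in 0 of the 12 TRBS, which allows a share of up to 24.2% by the Wilson interval, against 14.9% of all TRBS and 5 of the 23 flanks. The EBF motif TCCCNNGGGA was found in 1 of the 12 (8.33%, 1.49 to 35.4%), the TRBS of Ddit3, against 4.54% of all TRBS. The motif of nuclear factor I, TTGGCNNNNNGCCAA with at most 1 mismatch, was found in 2 of the 12 (16.7%, 4.70 to 44.8%), against 2.94% of all TRBS and 0 of the 23 flanks. The matches lay 327.0 bp from the summit at −2152 bp of Cebpb and 165.0 bp from the summit in the TRBS of Cebpa. No test was made on these 2 sites, and the greater width of the family TRBS was not allowed for.

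Most DR4-like sequences around the C/EBP genes were not within a TRBS. Up to 30 kb from its start, Cebpb had 16 such sequences with at most 2 mismatches, of which 4 lay in a TRBS. Cebpg had 14 and Ddit3 had 13, each with 1 in a TRBS, and Cebpz had 12, also with 1. Cebpa had 11, Cebpd 9 and Cebpe 8, with none in a TRBS. The median over protein-coding genes was 7, with quartiles of 5 and 9, so that all 7 members stood above the median. As many as Cebpb were found for 1.63% of genes, as many as Cebpg for 4.32% and as many as Ddit3 for 6.86%, whereas for Cebpd and Cebpe the share was 34.0% and 45.4%. Neighbouring genes share the sequence around them, and the GC content of these loci was not tested against the counts.

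**Figure D5:**
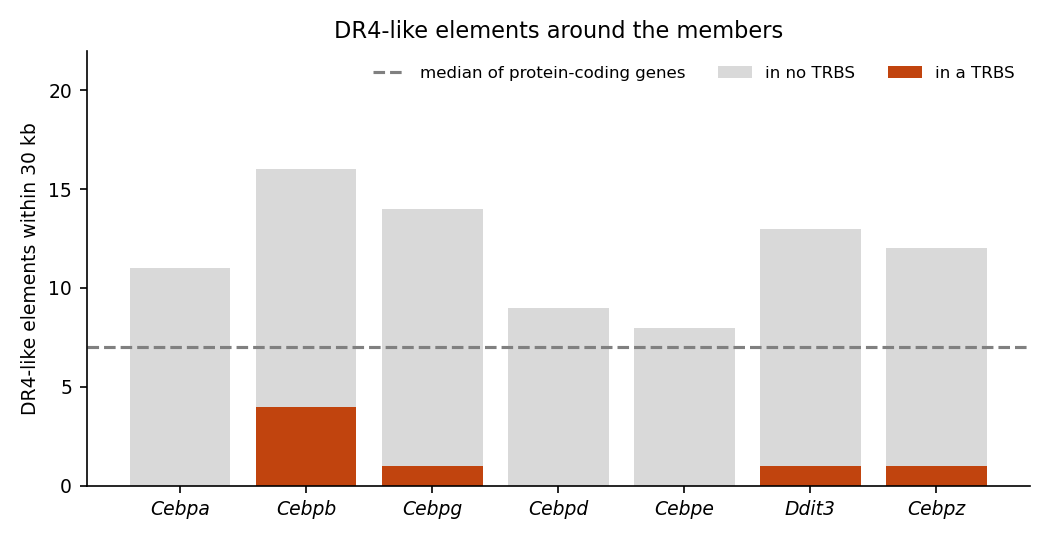
Number of DR4-like sequences with at most 2 mismatches within 30 kb of the TSS of each C/EBP gene (y axis), divided into those inside a TRBS (orange) and those in none (grey). The dashed line is the median of all protein-coding genes, 7; Cebpb has the most, 16 with 4 in a TRBS, and Cebpd and Cebpe have 9 and 8 with none.

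With at most 1 mismatch, Cebpb had 3 DR4-like sequences within 30 kb, a number reached by 3.41% of genes, and 2 of them lay in a TRBS. The third, AGGTCAggagAGGCCA at chr2:167659285-167659300, lay at −29622 bp and in no TRBS. Cebpz and Ddit3 had 1 each, neither in a TRBS. That of Cebpz was AGGTCAgtagATGTCA at chr17:78951046-78951061, and that of Ddit3 was AGGTTAggagAGGTCA at chr10:127274392-127274407. At both genes the element with 1 mismatch thus lay outside every listed TRBS, while one with 2 mismatches lay inside the TRBS. The latter was 1.5 bp from the summit at Cebpz but 814.5 bp from it at Ddit3, and whether the receptor bound it was not tested. The other members had no element with at most 1 mismatch within 30 kb.

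The genes that act with the C/EBP family were described from 5 lists, beside the 16.7% of all protein-coding genes that have a TRBS at this distance. These lists were drawn up with earlier results of these data known, and the counts are a description. Of 12 targets and partners of C/EBP proteins in adipocytes, 11 had a TRBS (91.7%), with Prdm16 the exception. The strongest was at −4514 bp of Ucp1, the uncoupling protein of brown fat, with 362 fragments and a fold of 65.2. Lep, encoding leptin, had a TRBS at −269 bp with 86 fragments, and Scd1, a fatty acid desaturase gene, one at −8513 bp with 62. The site of Ucp1 exceeded every TRBS of the C/EBP genes themselves.

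Of 12 other genes of bZIP proteins, 8 had a TRBS (66.7%). Tef and Dbp, of the PAR family of circadian output factors, had their strongest sites at −27554 bp (61 fragments, fold 43.4) and +2770 bp (58 fragments, fold 34.6). Atf3, a stress-induced factor, followed with 50 fragments at −6532 bp. Atf4, Jun, Junb and Fos had none within 30 kb. Of 10 inducers of C/EBP genes in adipogenesis, 4 had a TRBS (40.0%), namely Stat5a, Stat5b, Srebf1 and Klf15. Stat5a and Stat5b shared their strongest one, with 61 fragments at +85 bp of Stat5a. Klf4, Egr2, Creb1, Nr3c1, Stat3 and Klf5 had none.

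Of 10 stress response targets of Atf4 and Ddit3, 4 had a TRBS (40.0%). Bbc3, an apoptosis gene, had 57 fragments at +4935 bp, Ddit4 35 at +19189 bp, Trib3 32 at −16613 bp and Chac1 22 at +4515 bp. Of 8 modifiers of C/EBP proteins, 3 had one (37.5%). Id2, an inhibitor of helix-loop-helix factors, had 49 fragments at −15887 bp, Trib1, which directs C/EBPα to degradation, 39 at +4765 bp, and Gsk3b, a kinase gene, 12 at −8892 bp.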

How the data were processed

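ChIP-seq for TRα1 and its input were analysed, 1 library of each kind, without replicates. Per the submitters' processing notes, reads were aligned to mm10 with Bowtie2 (2.3.2.2) and peaks called with MACS2 (2.1.1.20160309.6) against the input. The deposited list held 5107 peaks and gave for each a score, a fold ratio, a −log10 p-value and a −log10 q-value, all made by the authors with MACS2. The study removed peaks with a score under 60 in its methods, but 897 of the deposited peaks were below it, and the main setting kept all. Read totals are not part of the list, so depth was read from the peaks: a whole number of fragments gave the −log10 p within 0.0005 for 5090 peaks (99.7%), which was unique for 5052, and the lowest background was 0.430 fragments. Backgrounds are on the scale of the ChIP library.

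TSS were the 5′ ends of protein-coding genes in GENCODE M21 on GRCm38, and of the 2 entries named Ddit3 the longer was used. Promoters were taken as the 1000 bp before and 100 bp after a TSS. Motifs were searched over the whole peak. Scripts used python 3.11.15, numpy 2.4.6, pandas 2.3.3, scipy 1.17.1, pysam 0.24.0 and matplotlib 3.10.9, and were tested on simulated data. Shares have Wilson 95% intervals and fragments exact Poisson 95% intervals. No test between conditions was possible. All TRBS of the 7 members within 100 kb were named, besides the protein-coding gene nearest to each, the genes with as many TRBS of at least 5-fold enrichment as Cebpb, and from each list its 2 to 4 genes with the highest scores and the genes that make up small counts. The members and lists were chosen with earlier results of these data known. Alternatives were other score limits, distances, start sites, peak positions, gene assignments, merged peaks and motif settings. Summit sequences are given for 4 sites of Cebpb and 1 of Cebpz, and those of the other sites are not reported here.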

Additional observations from a re-analysis of the deposited data

How the results depend on the processing

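Of the recomputed summary values, 23 stayed within 1.5 times the count or within the interval of the share reported, and 9 moved further, as follows. The 12 TRBS became 7 within 10 kb, 21 gene and TRBS pairs within 100 kb, and 7 when each TRBS was given to the nearest gene, where Cebpb had 2, Cebpg 3 and Ddit3 0. The share with a DR4, 50.0%, became 16.7% with at most 1 mismatch and 100.0% with at most 3, where all TRBS had 7.23% and 72.5%. The share with a C/EBP motif, 25.0%, became 0.0% for exact matches, against 0.274% of all TRBS. The genes with at least as many TRBS as Cebpb, 26, became 74 within 50 kb, 85 within 100 kb and 12 with at least 5-fold enrichment. The number of members with a TRBS was 5, or 4 within 10 kb, with a score of at least 100 or by nearest gene. For scores of at least 60 and 100, 14.1% and 11.3% of all genes had a TRBS within 30 kb, and for 10 kb and 50 kb 8.09% and 24.0%. No such share is given for assignment to the nearest gene, so nothing is drawn from the count of members in that setting. No paired analysis was possible because there was 1 library of each kind. With 1 ChIP library, sites with few fragments may come and go in a repeat, and 12 sites leave wide intervals on every share.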
